A study of Rattus norvegicus with 82 samples.

Results

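The genes followed here encode the myosin and actin isoforms that rodent hearts exchange between fetal and adult life: the heavy chains Myh6 and Myh7, the light chains Myl2, Myl3, Myl4 and Myl7, and the sarcomeric actins Acta1 and Actc1. They were listed by name and looked up by symbol in the annotation of the array, and where a gene had more than 1 probe set, the one that was brightest on average across the 82 arrays was used. Of the 8 listed genes, 7 had a probe set annotated to them alone, out of 14218 genes so annotated. Actc1 did not, since its 5 probe sets are annotated to Acta2 and Actc1 together. Those 5, and 2 further probe sets annotated to Myh7 and Myh6 together, are described below as shared probe sets and credited to neither gene.

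The myocardium of male Wistar (Crl:Wi(Han)) rats was profiled on Affymetrix arrays, 1 animal per array, after a single intravenous injection. Vinblastine was given at 0.5 or 3 mg/kg, vincristine at 0.1 or 1 mg/kg and colchicine at 0.2 or 2 mg/kg, and controls received saline, which was also the carrier of every compound. Hearts were taken 6 or 24 h later, which makes 14 groups of 6 animals, except that the vincristine 0.1 mg/kg groups held 5 each. Vinblastine and vincristine are vinca alkaloids and colchicine is an alkaloid of the autumn crocus; all bind tubulin and block the assembly of microtubules. The sources used here do not state the animals' age. Values are intensities on the linear scale of the deposited table, given as mean ± SD, and changes are log2 differences ± SE from a limma fit of log2(intensity + 16) over all arrays, with Benjamini-Hochberg adjustment over 11320 genes. A gene is said to rise or fall where that adjusted p was under 0.05. A fold change on this scale understates the change of a dim gene.

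Cardiac myosin is a motor built from a pair of heavy chains, each carrying an essential and a regulatory light chain. The adult rodent ventricle uses mainly the fast alpha heavy chain, the product of Myh6, whereas the fetal ventricle uses the slow beta heavy chain, the product of Myh7. In rodents, pressure overload, hypothyroidism and heart failure shift the ventricle back towards Myh7, often together with the skeletal actin Acta1 and the natriuretic peptides Nppa and Nppb, and this return is known as the fetal gene programme. Myl4 and Myl7 are the atrial essential and regulatory light chains, and Myl3 and Myl2 are their ventricular counterparts. RNA from whole tissue does not tell fewer cells of a type from less RNA per cell.

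Myh6 and Myh7 lie in tandem on the minus strand of rat chromosome 15, with 0 protein-coding genes and 4 genes of any kind annotated between them (RefSeq, GRCr8). The windows around their RefSeq gene starts run from 250 bases before to 50 after. They are printed because these are the heavy chain genes whose balance shifted. The window of Acta1 is printed because it holds each of the motifs marked. The gene start in RefSeq need not be the start used in heart. Capitals mark matches, on either strand, to the MCAT element (CATTCC), the TATA box (TATAAA) and the CArG box, the site of serum response factor.
Myh6, chr15:32411648-32411947, minus strand: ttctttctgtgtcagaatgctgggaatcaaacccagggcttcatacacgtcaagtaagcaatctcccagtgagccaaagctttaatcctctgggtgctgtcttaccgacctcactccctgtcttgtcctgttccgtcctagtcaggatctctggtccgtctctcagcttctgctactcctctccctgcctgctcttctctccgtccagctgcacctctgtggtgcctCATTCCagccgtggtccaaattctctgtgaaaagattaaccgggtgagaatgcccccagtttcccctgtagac
Myh7, chr15:32438145-32438444, minus strand: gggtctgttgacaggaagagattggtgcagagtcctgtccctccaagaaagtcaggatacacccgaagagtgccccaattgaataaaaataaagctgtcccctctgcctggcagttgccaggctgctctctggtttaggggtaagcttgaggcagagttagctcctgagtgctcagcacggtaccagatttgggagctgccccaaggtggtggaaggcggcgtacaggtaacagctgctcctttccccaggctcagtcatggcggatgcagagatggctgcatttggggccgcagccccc
Acta1, chr19:68784145-68784444, minus strand: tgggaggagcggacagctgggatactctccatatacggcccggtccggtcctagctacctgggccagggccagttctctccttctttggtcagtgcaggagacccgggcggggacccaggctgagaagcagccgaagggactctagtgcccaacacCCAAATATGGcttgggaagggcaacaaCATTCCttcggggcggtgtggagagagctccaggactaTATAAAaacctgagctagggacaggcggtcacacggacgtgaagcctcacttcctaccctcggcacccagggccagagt
The Acta1 window held a CArG box at position -94 from the gene start, an MCAT element at -67 and a TATA box at -29. The Myh6 window held 1 MCAT element, at -23, and the Myh7 window held a match to none of these, only 4 E boxes (CANNTG). After its gene start the Myh7 window reaches an ATG with an open frame to the window's end, which reads as coding sequence. That window may therefore miss the promoter used in heart, and its lack of matches cannot be set against Acta1. No match overlapped another in the windows shown. A CArG box was found in 1.64% of 33469 rat promoter windows of this length, an MCAT element in 14.2%, a TATA box in 14.2% and an E box in 72.1%. A CArG box was also present in the windows of Myl3, at -97, and Actc1, at 3. A match is only a run of letters, and the absence of one in this window says nothing about the factor.

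The tissue carried the markers of heart muscle on every array: Tnnt2 ranged from 20272 to 27527 and Actn2 from 11228 to 15838. The 6 skeletal muscle markers on the array read at most 61.2. Actn3 passed the dim-gene threshold, the 40th percentile of all probe sets, on 0 arrays, Tnni2 on 3, Pvalb on 8, Tnnt3 on 14, Atp2a1 on 79 and Myog on 81. Of the 82 arrays, 10 had a profile over 1.3 times nearer the median profile of another group than that of their own. The pair that bears on the results is the array labelled vinblastine 3 mg/kg 6 h replicate 1, nearer colchicine 2 mg/kg 24 h, and the array labelled colchicine 2 mg/kg 24 h replicate 1, nearer colchicine 0.2 mg/kg 24 h. The description of the first is among 6 that end in _2, a mark the labels do not explain. All arrays are used as labelled, and the main results that include either are also given without it. Saline animals are shared by all comparisons within a time.

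Myh7, the slow heavy chain, rose about 4-fold at 24 h after the higher dose of each compound. In saline at 24 h its intensities were 3082, 3801, 4565, 2958, 3594 and 3554. After vinblastine 3 mg/kg they were 17942, 12332, 12435, 17230, 12869 and 13556, and after vincristine 1 mg/kg they were 16111, 14549, 14102, 18546, 16806 and 13115. Every one of these 12 treated hearts lay above every saline heart. Groups lay wholly apart from saline, in either direction, for 6.3% of all genes after vinblastine, 20.1% after vincristine and 8.6% after colchicine. After colchicine 2 mg/kg 5 hearts lay between 17393 and 20607, and the array of replicate 1 read 4542, inside the saline range. The change from saline was 1.99 ± 0.31 on the log2 scale for vinblastine (3.99-fold, adjusted p = 4.4e-06 in limma), 2.11 ± 0.31 for vincristine (4.33-fold, adjusted p = 2.4e-07) and 2.05 ± 0.31 for colchicine (4.14-fold, adjusted p = 1.3e-07). Without colchicine replicate 1 that last change was 2.39 (adjusted p = 3.9e-10 in limma). The second probe set of Myh7 rose likewise, by 2.11 ± 0.43, 2.49 ± 0.43 and 2.67 ± 0.43, with adjusted p-values of 0.00052, 8.0e-06 and 6.5e-07 in a limma fit of every probe set, in which 3.92%, 9.35% and 16% of probe sets rose. Without colchicine replicate 1 its last change was 3.14 (adjusted p = 2.2e-09 in limma). Myh7 was the only one of the 7 genes that rose at 24 h after vinblastine 3 mg/kg, where 5.29% of all genes tested rose, after vincristine 1 mg/kg, where 12% rose, and after colchicine 2 mg/kg, where 19.3% rose.

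**Figure D1:**
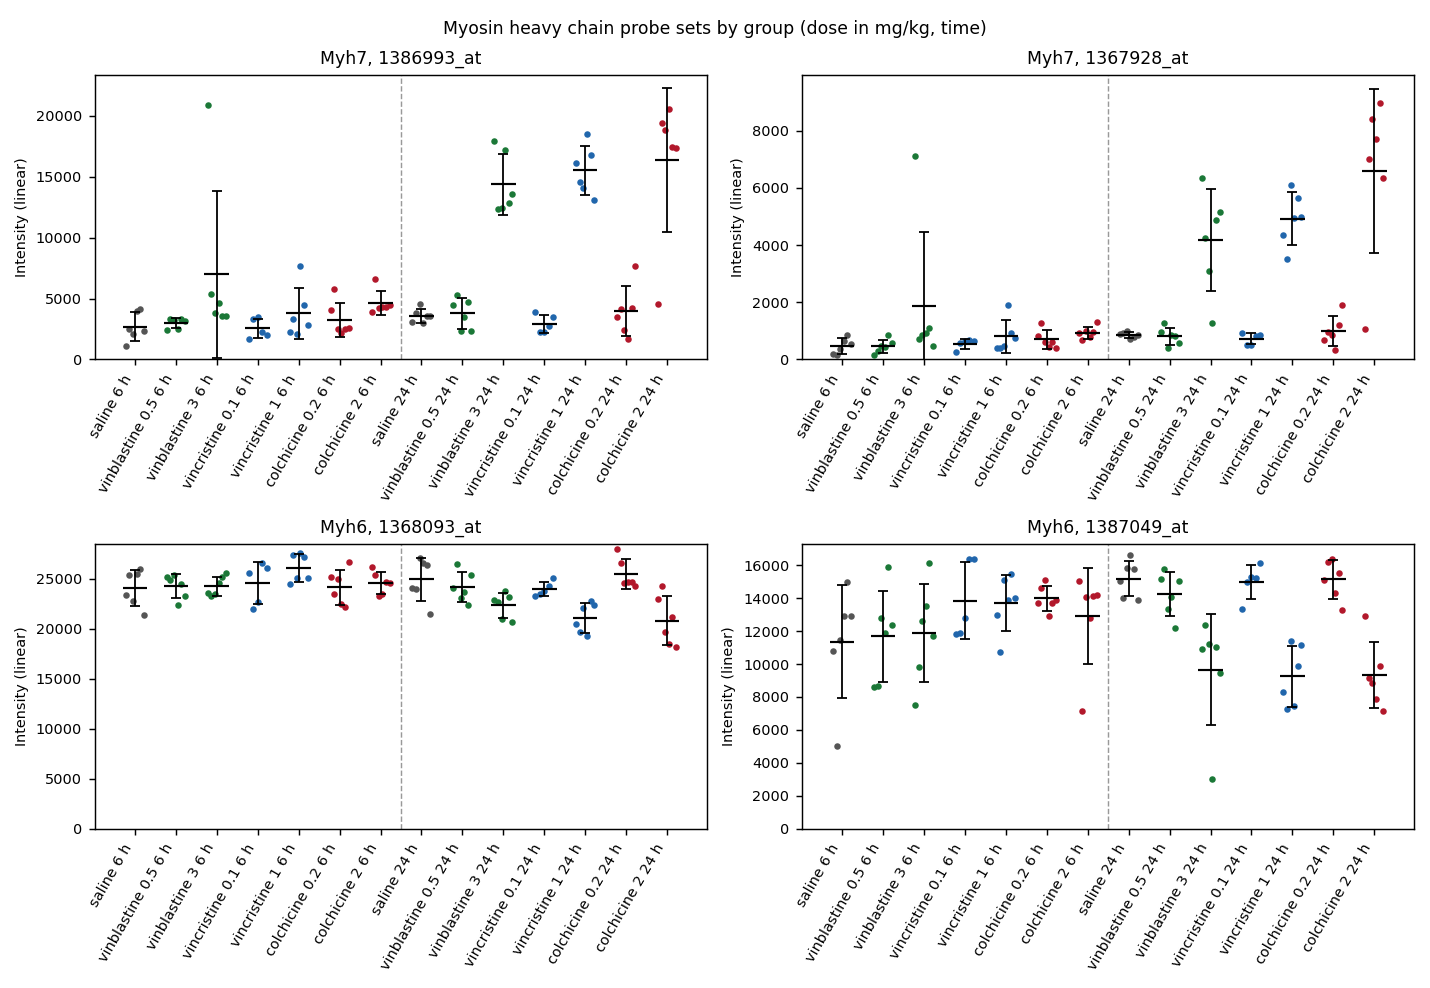
Linear intensities of the brighter (left) and dimmer (right) probe sets of Myh7 and Myh6 in each array, by group, with the group mean and SD as bars and a dashed line between 6 h and 24 h. Myh7 stood between 12332 and 20607 after the higher doses at 24 h, except 1 colchicine array at 4542, and 1 vinblastine array at 6 h read 20938.

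No change of Myh7 was called after the lower doses. At 24 h the group means were 3782 ± 1274 (SD, n = 6) after vinblastine 0.5 mg/kg, 2922 ± 748 (SD, n = 5) after vincristine 0.1 mg/kg and 3962 ± 2068 (SD, n = 6) after colchicine 0.2 mg/kg, beside 3592 ± 575 (SD, n = 6) in saline. The 95% intervals of the log2 change from saline were -0.61 to 0.64, -0.97 to 0.34 and -0.63 to 0.62. None of the 7 genes passed the test after a lower dose at either time, and none had an unadjusted p under 0.05 there. Of all genes, 0.0353% passed at 6 h after vinblastine 0.5 mg/kg and 0.274% after colchicine 0.2 mg/kg, and 0% in the other 4 lower-dose comparisons in limma. Set directly against the lower dose at 24 h, the higher dose raised Myh7 by 1.98 ± 0.31 for vinblastine (adjusted p = 1.1e-05), 2.43 ± 0.33 for vincristine (adjusted p = 6.5e-08) and 2.05 ± 0.31 for colchicine (adjusted p = 1.7e-07), while 3.92%, 12.3% and 18.8% of all genes rose in those comparisons.

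At 6 h Myh7 passed the test in 1 of the higher-dose groups, and that call rested on a single array. Saline hearts read 1108, 2485, 2100, 4008, 4170 and 2331. Vinblastine 3 mg/kg hearts read 20938, 5410, 3807, 4634, 3539 and 3538, and the first of these is the array described above as lying nearer another group. Myh7 was the 1 gene of the 7 that passed the test in this group (1.13 ± 0.31, adjusted p = 0.0057; 15.7% of all genes rose), and without that array its change was 0.74 with an adjusted p of 0.089. The second probe set rose in this group as well (1.51 ± 0.43, adjusted p = 0.0094; 11.9% of probe sets rose), and without the same array its change was 0.98 (adjusted p = 0.13 in limma). Colchicine 2 mg/kg hearts read 3932, 6627, 4192, 4323, 4313 and 4455, all above the saline mean of 2700, for a change of 0.88 ± 0.31 (adjusted p = 0.061). After vincristine 1 mg/kg the change was 0.46 ± 0.31 (adjusted p = 0.44), with one heart at 7661 and the others between 2079 and 4504. None of the 7 genes passed the test in limma at 6 h after vincristine 1 mg/kg or colchicine 2 mg/kg, where 3.3% and 9.27% of all genes did; 1 of the 7 had an unadjusted p under 0.05 in each, Myh6 after vincristine and Myh7 after colchicine. Against the lower dose at 6 h, none of the 7 passed either, while 8.52% of all genes did for vinblastine, 2.81% for vincristine and 9.25% for colchicine.

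Whether the response grew between the times was tested as the 24 h change minus the 6 h change. For Myh7 the difference was 1.65 ± 0.44 after vincristine 1 mg/kg (adjusted p = 0.0078), 1.17 ± 0.44 after colchicine 2 mg/kg (adjusted p = 0.054) and 0.87 ± 0.44 after vinblastine 3 mg/kg (adjusted p = 0.26). Without the colchicine array of replicate 1 at 24 h the colchicine difference was 1.51 and passed (adjusted p = 0.0039 in limma), and without the vinblastine array of replicate 1 at 6 h the vinblastine difference was 1.26 (adjusted p = 0.059). Without all 10 arrays nearer another group, the vinblastine difference was again 1.26 and passed (adjusted p = 0.011). For Myh6 it was -0.36 ± 0.08 after vincristine (adjusted p = 0.0020), -0.30 ± 0.08 after colchicine (adjusted p = 0.0066) and -0.17 ± 0.08 after vinblastine (adjusted p = 0.24). The Myh6 difference after vincristine was -0.12 with an adjusted p of 0.087 once arrays were quantile normalized, and the Myh7 difference missed the threshold on the second probe set (adjusted p = 0.061). The shares of all genes called were 3.53% up and 8.75% down for vincristine, 6.3% up and 12.6% down for colchicine and 4.43% in either direction for vinblastine. In saline hearts, Myh7 averaged 2700 ± 1179 (SD, n = 6) at 6 h and 3592 ± 575 (SD, n = 6) at 24 h, a change of 0.52 ± 0.31 that did not pass (adjusted p = 0.47). None of the 7 genes passed in limma between the saline times, where 0.00883% of all genes did. None passed in the differences between times of the lower doses, where 0% of all genes passed for vinblastine and vincristine and 0.0265% for colchicine.

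Myh6, the fast adult heavy chain, fell by a small amount after vincristine 1 mg/kg and colchicine 2 mg/kg at 24 h. Saline hearts read 24081, 23929, 27094, 26551, 26366 and 21500. Vincristine hearts read 20490, 19645, 22020, 19270, 22738 and 22360, and colchicine hearts 22916, 24257, 19678, 18435, 21199 and 18195. All 12 lay below the saline mean of 24920, although both groups overlapped the lowest saline heart. The changes were -0.24 ± 0.06 (adjusted p = 0.0011) and -0.27 ± 0.06 (adjusted p = 0.00013), and without colchicine replicate 1 the latter was -0.30 (adjusted p = 3.3e-05 in limma). After vinblastine 3 mg/kg, with hearts between 20685 and 23773, the change was -0.16 ± 0.06 (adjusted p = 0.082). Of all genes tested, 4.28% fell after vinblastine, 18.4% after vincristine and 25.3% after colchicine, so a fall was common in the latter pair. Against the lower dose at 24 h, Myh6 fell by 0.19 after vincristine (adjusted p = 0.019) and by 0.30 after colchicine (adjusted p = 2.5e-05), where 11.6% and 22.7% of all genes fell. Leaving out any of 3 single arrays lost the vincristine call, with adjusted p-values up to 0.061. At 6 h no group moved Myh6 by more than 0.12.

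The dimmer probe set of Myh6 moved further than the brighter one. Its mean was 15193 ± 1071 in saline at 24 h, 9667 ± 3381 after vinblastine 3 mg/kg, 9251 ± 1831 after vincristine 1 mg/kg and 9318 ± 2013 after colchicine 2 mg/kg (SD, n = 6 each). No treated heart of the 3 groups reached the lowest saline heart at 13919. Groups lay wholly apart from saline for 6.3%, 20.1% and 8.6% of all genes after vinblastine, vincristine and colchicine. The changes of the dimmer Myh6 probe set were -0.78 ± 0.20 (adjusted p = 0.0056), -0.74 ± 0.20 (adjusted p = 0.0028) and -0.73 ± 0.20 (adjusted p = 0.0017), so on this probe set the vinblastine group passed as well. In the limma fit of every probe set, 4.07%, 16.1% and 21.7% of probe sets fell in these comparisons. One array stood apart: vinblastine replicate 4 read 3035 and the other 5 hearts 9427 to 12361. In a fit without it, chosen after seeing the data, the vinblastine change was -0.47 and did not pass (adjusted p = 0.076 in limma). The brighter probe set read between 18195 and 27988 on all arrays, in a table whose highest value was 39497.

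A probe set annotated to both heavy chains fell at 24 h by more than either Myh6 probe set. It read 5983, 6153, 6952, 7524, 6974 and 5688 in saline at 24 h, and 3085, 2780, 4120, 3563, 1862 and 2393 after vinblastine 3 mg/kg. After vincristine 1 mg/kg it lay between 1317 and 1726, and after colchicine 2 mg/kg between 512 and 858 except for replicate 1 at 5806. The changes were -1.18 ± 0.30 (adjusted p = 0.0060), -2.19 ± 0.30 (adjusted p = 5.7e-08) and -2.71 ± 0.30 (adjusted p = 6.0e-11). Without colchicine replicate 1 the last of these was -3.22 (adjusted p = 4.7e-18 in limma). Of all probe sets, 4.07%, 16.1% and 21.7% fell after vinblastine, vincristine and colchicine. At 6 h the array of vinblastine 3 mg/kg replicate 1 read 576 and the other 5 of its group read 5180 to 7080. The other probe set with both annotations did not pass in any of the 3 groups at 24 h (-0.03, -0.14 and -0.10, lowest adjusted p = 0.054). Its saline mean was 26936 ± 2168 (SD, n = 6).

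The Myh7 to Myh6 balance was taken per heart as log2(Myh7 + 16) minus log2(Myh6 + 16). Only its differences between groups are read, because the brightness of 2 probe sets does not compare. Saline hearts at 24 h lay between -3.16 and -2.57, with a mean of -2.80 ± 0.24 (SD, n = 6). The means were -0.65 ± 0.21 after vinblastine 3 mg/kg, -0.45 ± 0.25 after vincristine 1 mg/kg and -0.48 ± 0.92 after colchicine 2 mg/kg (SD, n = 6 each). The lowest value of the colchicine group, -2.33 in replicate 1, still lay above the highest saline heart. All 18 treated hearts therefore stood above all 6 saline hearts at 24 h. The shifts were 2.15, 2.35 and 2.32, a 4.44-fold, 5.11-fold and 4.98-fold change in the ratio, each with an exact two-sided permutation p of 0.0022, the smallest that 6 against 6 hearts can give (adjusted p = 0.0087 over 12 comparisons). Without colchicine replicate 1 the colchicine shift was 2.69 (adjusted p = 0.0087 by exact permutation). These shifts use the brighter probe set of each gene. Myh7 and Myh6 each moved further on the dimmer probe set, as given above, so the size of the ratio depends on the probe sets.

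**Figure D2:**
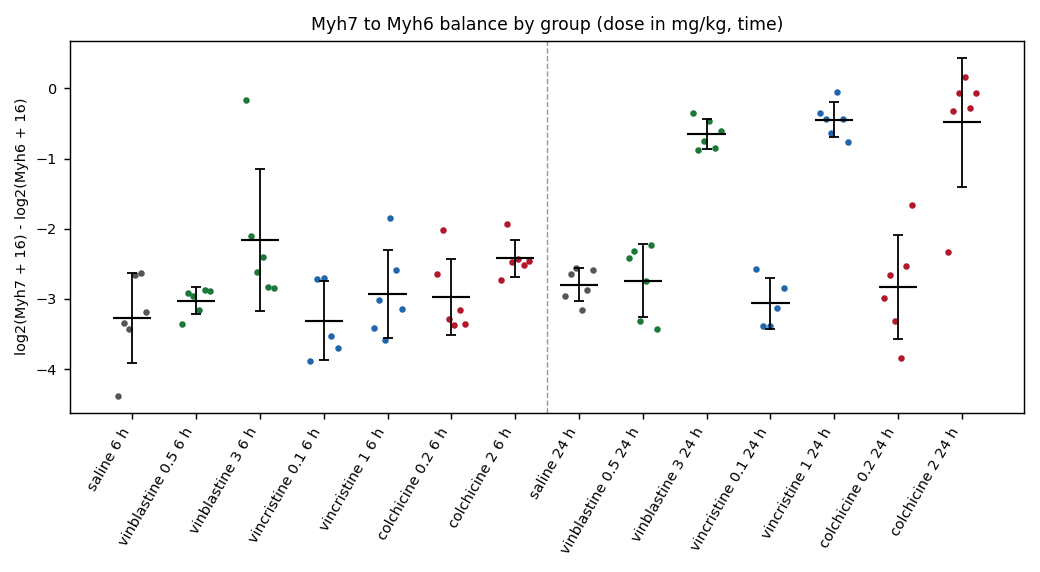
Myh7 to Myh6 balance of each heart, as the difference of log2(intensity + 16), by group, with the group mean and SD. After the higher doses at 24 h the group means lay between -0.65 and -0.45, against -2.80 in saline, and the lone vinblastine array at 6 h read -0.17.

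At 6 h the balance shifted by 0.85 after colchicine 2 mg/kg (exact permutation p = 0.0065, adjusted p = 0.019) and by 1.11 after vinblastine 3 mg/kg (exact permutation p = 0.017, adjusted p = 0.042). The colchicine hearts lay between -2.73 and -1.93 and the saline hearts between -4.38 and -2.63, so the groups overlapped. Without vinblastine replicate 1 the vinblastine shift was 0.71 (adjusted p = 0.078), and without colchicine replicate 2 the colchicine shift was 0.75 (adjusted p = 0.052). After vincristine 1 mg/kg it was 0.34 (exact permutation p = 0.39, adjusted p = 0.58). The 6 lower-dose shifts ran from -0.27 to 0.30, with adjusted p-values of 0.36 or more.

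Myl2 and Myl3, the ventricular regulatory and essential light chains, stayed within narrow ranges of intensity. Their probe sets ranked 7 and 19 by mean intensity among all probe sets. How far signal at that brightness follows the amount of RNA was not tested, and the brighter Myh6 probe set moved less than the dimmer one. Myl2 group means ran from 24819 to 27832, and its 12 changes from saline from -0.13 to 0.11. Myl2 passed the test in none of 25 comparisons, with an unadjusted p under 0.05 in 3 and a lowest adjusted p of 0.062. Myl3 changed by -0.12 ± 0.05 after colchicine 2 mg/kg at 24 h (20262 ± 1660 against 22062 ± 1155, SD, n = 6 each), with an adjusted p of 0.049. That call was lost in 9 of the 12 fits that left out 1 array, with adjusted p-values up to 0.17. Against colchicine 0.2 mg/kg at 24 h, Myl3 differed by -0.14 ± 0.05 (adjusted p = 0.032), a call lost in 6 of 12 such fits with adjusted p-values up to 0.13. With Myh6, this made 2 members that fell after colchicine 2 mg/kg at 24 h, beside 25.3% of all genes. The dimmer Myl2 probe set, with a mean of 292 over all arrays, did not pass after any higher dose at 24 h (-0.11, -0.26 and -0.33).

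**Figure D3:**
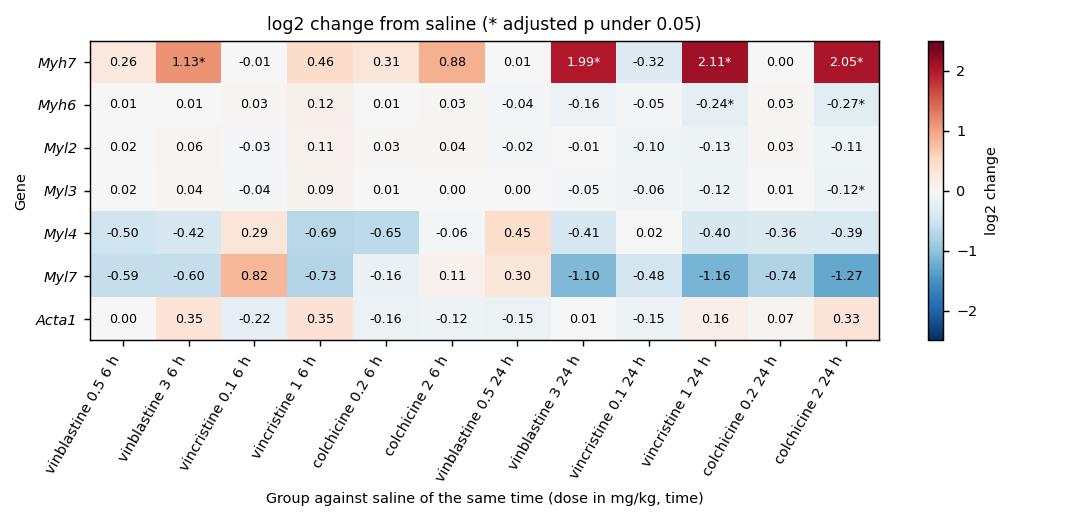
Log2 change from the saline group of the same time for each of the 7 genes (rows) in the 12 dose and time groups (columns), with an asterisk for an adjusted p under 0.05. Myh7 at 24 h after the higher doses holds the strongest entries, 1.99, 2.11 and 2.05, and the ventricular light chains stay between -0.13 and 0.11.

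Myl4 and Myl7, the atrial light chains, were dim on 75 arrays and high on 7 arrays from 6 groups. Over 75 arrays Myl7 lay between 36.9 and 382, with a median of 79.5, and Myl4 between 45.1 and 249, with a median of 80.2. On the other 7 arrays Myl7 read 621 to 3460 and Myl4 read 287 to 2300. These 7 were saline 6 h replicate 2, saline 24 h replicate 1, vinblastine 0.5 mg/kg 24 h replicate 4, vincristine 0.1 mg/kg 6 h replicate 1, vincristine 0.1 mg/kg 24 h replicate 5 and colchicine 2 mg/kg 6 h replicates 3 and 6. None was from a higher dose at 24 h, where Myl7 stayed at or below 145 and Myl4 at or below 121. Neither gene passed the test in any of 25 comparisons, and neither had an unadjusted p under 0.05 in limma. The intervals are wide: after colchicine 2 mg/kg at 24 h the change of Myl7 was -1.27, with a 95% interval of -2.77 to 0.23, and that of Myl4 was -0.39, with an interval of -1.46 to 0.68. A rise of Myl4 by more than 0.68 or of Myl7 by more than 0.40 lay outside the 95% intervals of all 3 higher-dose groups at 24 h. These limits rest in part on saline 24 h replicate 1, among the 7 high arrays, and no fit without it is given. Medians of Myl4 at 24 h were 86.5 in saline and 87.7, 88.4 and 85.6 after the higher doses of vinblastine, vincristine and colchicine. Those of Myl7 were 123, 75.5, 73.3 and 54.9 in that order.

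Within groups, the 2 atrial light chains deviated from their group means together across the 82 hearts (Pearson r = 0.93, permutation p = 1e-05; Spearman rho = 0.82, permutation p = 1e-05, the smallest that 100000 resamples can give). Without the 2 hearts farthest from the median, r was 0.90. Sln, the atrial sarcolipin, which inhibits the calcium pump, deviated with Myl7 at r = 0.79 and rho = 0.61 and with Myl4 at r = 0.74 and rho = 0.53 (permutation p = 2e-05 each). Nppa, the atrial natriuretic peptide, did so with Myl7 at r = 0.64 and rho = 0.50 and with Myl4 at r = 0.64 and rho = 0.47 (permutation p of 0.00022 or less). In all 7 relations were computed, and all had adjusted p-values of 0.00022 or less. Without the 2 farthest hearts these r values ran from 0.49 to 0.70. On the 7 arrays with high Myl7, Sln read 216 to 1658, overlapping the 58.0 to 457 (median 119) of the other 75. Nppa read 2580 to 7743 on the 7, inside its range of 765 to 11708 on the other 75. The amount of atrium in each sample was not measured, and its part in these values was not tested. The labels give no batch, so no within-batch value could be had.

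**Figure D4:**
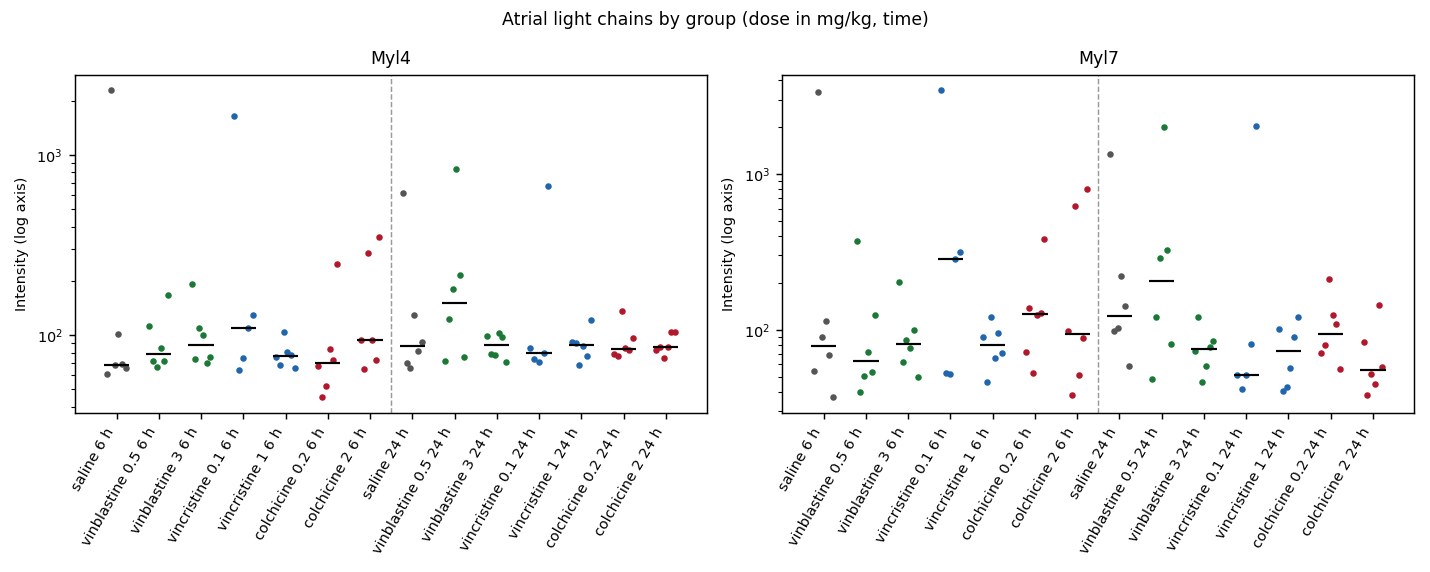
Intensities of Myl4 and Myl7 in each array by group, on log axes, with the group median as a bar. Single arrays in saline, lower-dose and 6 h groups reach 2300 for Myl4 and 3460 for Myl7, while the 3 higher-dose groups at 24 h stay at or below 121 and 145.

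Acta1, the skeletal alpha actin that fetal and overloaded rodent hearts express, was bright in every group and did not pass the test. Saline hearts at 24 h read 9073, 14377, 18371, 10340, 14202 and 12821. Colchicine 2 mg/kg hearts read 14694, 14463, 17632, 18349, 17438 and 14815, all above the saline mean of 13198 but within the saline range, for a change of 0.33 ± 0.19 (adjusted p = 0.15). The changes at 24 h were 0.01 ± 0.19 after vinblastine 3 mg/kg and 0.16 ± 0.19 after vincristine 1 mg/kg, and at 6 h they were 0.35 ± 0.19, 0.35 ± 0.19 and -0.12 ± 0.19 after vinblastine, vincristine and colchicine. The upper 95% limits of the 3 changes at 24 h were 0.38, 0.53 and 0.70, so a rise of the size seen for Myh7 lay outside them. Over all 25 comparisons Acta1 had an unadjusted p under 0.05 in 1, vincristine 1 against 0.1 mg/kg at 6 h (0.58 ± 0.19, adjusted p = 0.087).

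The bright probe sets annotated to Acta2 and Actc1 together fell at 24 h after the higher doses, except the brightest after vinblastine 3 mg/kg. Actc1 encodes the cardiac alpha actin of the adult heart and Acta2 the smooth muscle alpha actin. The one with the largest change read 11716, 12352, 12886, 12236, 12172 and 11276 in saline. It read 8298, 7477, 9070, 7073, 6803 and 7608 after vinblastine 3 mg/kg and 5969, 5543, 6173, 4348, 6162 and 4370 after vincristine 1 mg/kg. After colchicine 2 mg/kg it read 11898 in replicate 1 and 2756 to 4240 in the other 5. The changes were -0.65 ± 0.16 (adjusted p = 0.0042), -1.17 ± 0.16 (adjusted p = 6.2e-08) and -1.44 ± 0.16 (adjusted p = 9.0e-11), and without colchicine replicate 1 the last was -1.72 (adjusted p = 2.9e-18 in limma). Another pair fell by 0.53 and 0.55, 0.79 and 0.80, and 0.99 and 0.99 in the same order. The brightest changed by -0.21 (adjusted p = 0.077), -0.46 (adjusted p = 4.2e-06) and -0.56 (adjusted p = 2.5e-08), and the fifth was too dim to pass that threshold on any array. The probe set annotated to Acta2 alone did not pass (-0.16, -0.01 and 0.25, lowest adjusted p = 0.40), with means of 648 to 822 after the higher doses and 716 ± 237 (SD, n = 6) in saline. In the fit of every probe set, 4.07%, 16.1% and 21.7% of probe sets fell in these 3 comparisons.

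**Figure D5:**
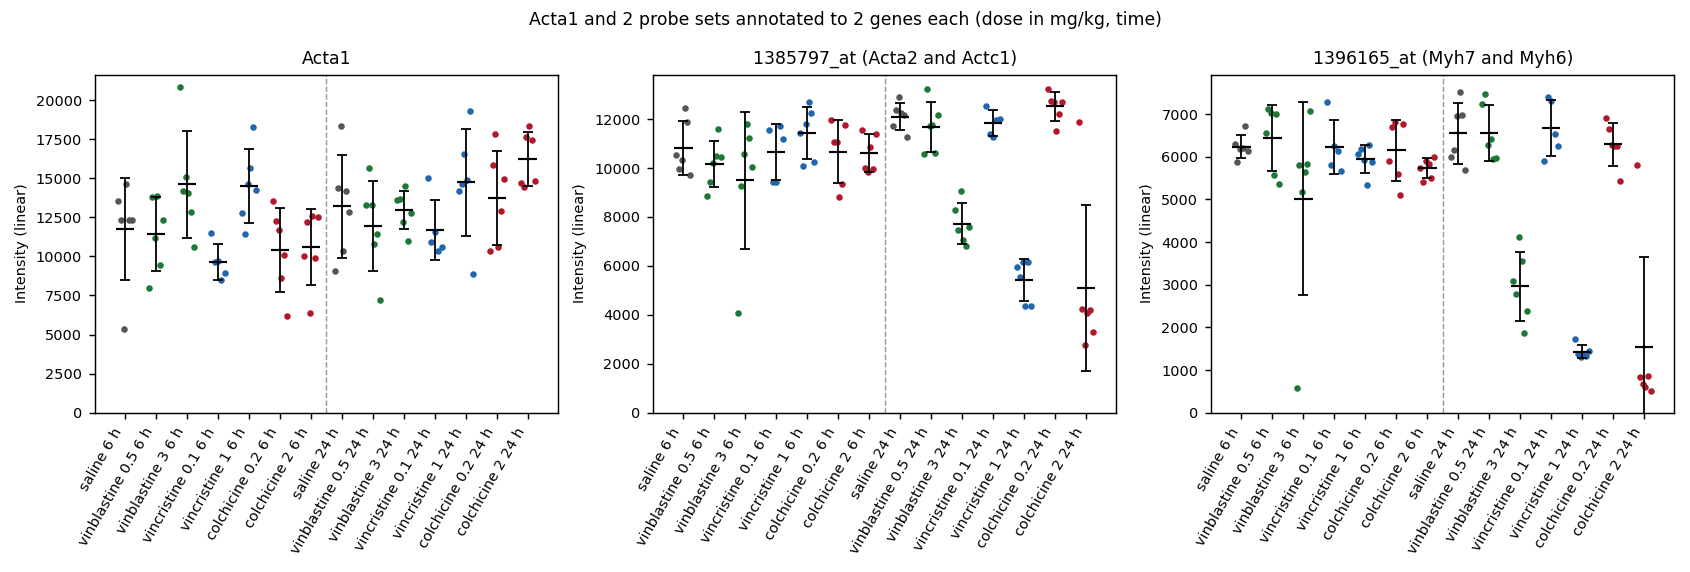
Linear intensities per array of Acta1, of the Acta2 and Actc1 probe set with the largest change and of the Myh7 and Myh6 probe set that fell, by group, with mean and SD. Acta1 overlaps saline in every group, while the shared probe sets drop after the higher doses at 24 h, except on the colchicine array at 11898 and 5806.

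Ordered by mean over the 14 groups, Myh7 ran from 16373 ± 5921 after colchicine 2 mg/kg at 24 h, through 15538 ± 1995 after vincristine 1 mg/kg and 14394 ± 2520 after vinblastine 3 mg/kg, down to 2555 ± 792 after vincristine 0.1 mg/kg at 6 h (SD, n = 6, and n = 5 for the last). Of the 13 pairs of neighbours in that order, 1 was farther apart than the larger of its SDs: the third group and the fourth, vinblastine 3 mg/kg at 6 h (6978 ± 6878). For Myh6 the lowest groups were the same 3, at 20780 to 22336, and 1 pair of neighbours was farther apart than the larger SD, vinblastine 3 mg/kg at 24 h and vincristine 0.1 mg/kg at 24 h (23973 ± 702). No neighbours were that far apart for Myl2, Myl3, Myl4, Myl7 or Acta1. The Myh7 order includes both arrays that lay nearer another group. Vinblastine 3 mg/kg at 6 h holds replicate 1 at 20938, beside 3538 to 5410 in its other hearts. Colchicine 2 mg/kg at 24 h holds replicate 1 at 4542, beside 17393 to 20607 in its other hearts. Doses of the compounds do not match, so their values stand side by side untested.

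The group means most like those of Myh7 over the 14 groups belonged to the complement proteases C1r (r = 0.99) and C1s (r = 0.98) and to Pir (r = 0.98). These are descriptions over 14 group means, with the higher-dose groups at 24 h well above the others for Myh7. They were chosen as the highest of 1745 genes. For the balance they were Pir (r = 0.99), C1r (r = 0.98) and Vamp5 (r = 0.98), for Acta1 they were Prss23 (r = 0.86), Zpr1 (r = 0.85) and Gch1 (r = 0.85), and for Myl4 they were Sln (r = 0.73), Car3 (r = 0.69) and Mcpt1l1 (r = 0.66).

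Among 24 other myosin and actin genes, 15 were tested. After vinblastine 3 mg/kg 0 rose and 3 fell, after vincristine 1 mg/kg 4 rose and 3 fell, and after colchicine 2 mg/kg 5 rose and 3 fell. Of all genes, 5.29%, 12% and 19.3% rose and 4.28%, 18.4% and 25.3% fell in these 3 comparisons. The list medians were -0.04, -0.04 and 0.09, beside -0.01, -0.01 and 0.00 over all genes. Myl9, a regulatory light chain of smooth muscle and nonmuscle myosin, fell in all 3, by 0.67, 0.94 and 1.13 (adjusted p = 0.0062, 1.5e-05 and 1.1e-07). Myl1, the essential light chain of fast skeletal muscle, rose by 0.92 after vincristine and by 0.73 after colchicine (adjusted p = 0.00050 and 0.0033), from a saline mean of 95.3 ± 11.6 (SD, n = 6). After vinblastine its change was 0.56 (adjusted p = 0.083). At 6 h Myl12a, a nonmuscle regulatory light chain, rose by 0.58, 0.45 and 0.42 after vinblastine, vincristine and colchicine, and 5, 1 and 2 of the 15 rose and 0 fell in those groups. Of all genes, 15.7%, 2.05% and 4.89% rose there.

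Of 9 further genes of the fetal programme, those that rose were chiefly the natriuretic peptides and Ankrd1, a stress-induced cardiac ankyrin repeat protein. Nppa rose at 24 h by 1.42 ± 0.41 after vinblastine 3 mg/kg, by 1.98 ± 0.41 after vincristine 1 mg/kg and by 2.10 ± 0.41 after colchicine 2 mg/kg (adjusted p = 0.014, 9.8e-05 and 1.4e-05). Nppb, the B-type peptide, rose already at 6 h, by 1.56, 1.39 and 1.49 (adjusted p = 0.00027, 0.012 and 0.0012), and at 24 h by 1.03 after vincristine and 0.99 after colchicine. Ankrd1 rose at 6 h by 0.88, 0.59 and 0.60 and at 24 h by 0.87 after vincristine and 0.95 after colchicine. In all, 1, 3 and 4 of the 9 rose at 24 h, beside 5.29%, 12% and 19.3% of all genes, and 0, 1 and 1 fell, beside 4.28%, 18.4% and 25.3%. The list medians were 0.11, 0.09 and 0.15. Ckb, the brain creatine kinase of the fetal heart, was the member that fell, by 0.84 and 0.92 (adjusted p = 0.00047 and 6.1e-05).

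Of 8 adult counterparts, 0 rose at 24 h and 2, 5 and 6 fell after vinblastine, vincristine and colchicine, with list medians of -0.09, -0.27 and -0.23. Of all genes, 4.28%, 18.4% and 25.3% fell. Slc2a4, the insulin-responsive glucose transporter, fell by 1.10, 1.85 and 1.85 (adjusted p = 0.0018, 4.7e-08 and 9.0e-09). Hk2, the adult muscle hexokinase, fell by 0.86, 1.33 and 0.87 (adjusted p = 0.00031, 1.4e-08 and 2.3e-05). Slc2a1, the transporter of the fetal heart, rose by 1.12 after colchicine (adjusted p = 5.6e-07). At 6 h 0 of the 8 counterparts passed in limma after a higher dose. Of the 11320 genes tested, 2642, 374 and 1049 passed there after vinblastine, vincristine and colchicine.

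Of 22 regulators of these genes, 19 were tested. At 24 h 0 passed in limma after vinblastine 3 mg/kg, 2 rose and 10 fell after vincristine 1 mg/kg, and 1 rose and 9 fell after colchicine 2 mg/kg, with list medians of -0.03, -0.18 and -0.22. Of all genes, 5.29% rose and 4.28% fell after vinblastine, 12% rose and 18.4% fell after vincristine, and 19.3% rose and 25.3% fell after colchicine. Srf, the factor that binds CArG boxes, fell by 0.50 and 0.60 after vincristine and colchicine (adjusted p = 0.00028 and 5.0e-06), and Myocd, its cardiac cofactor, by 0.40 and 0.91 (adjusted p = 0.017 and 5.6e-08). Thrb, a thyroid hormone receptor, fell by 0.36 and 0.98 (adjusted p = 0.018 and 6.6e-10), from 629 ± 88.8 in saline to 318 ± 92.2 after colchicine (SD, n = 6 each). After vinblastine the changes of Srf, Myocd and Thrb were -0.01, -0.10 and 0.01. At 6 h Nkx2-5, a cardiac homeobox factor, fell by 0.44, 0.39 and 0.54 and Mef2c by 0.70, 0.48 and 0.46 after vinblastine, vincristine and colchicine. In those groups 1, 0 and 0 of the 19 rose and 4, 2 and 2 fell. Of the 11320 genes tested, 1774, 232 and 554 rose there and 868, 142 and 495 fell.

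Marker levels of other cell types moved with the higher-dose groups at 24 h to differing degrees. The counts below stand beside the shares of all genes called after vinblastine, vincristine and colchicine. Those shares were 5.29%, 12% and 19.3% for rises and 4.28%, 18.4% and 25.3% for falls. The summed level of 6 cardiomyocyte markers ran from 102248 to 118871 in saline, 105722 to 119590 after vinblastine, 99599 to 111774 after vincristine and 96519 to 117575 after colchicine. The 3 ventricular markers summed to 3799 to 5984 in saline, 4017 to 5460 after vinblastine, 2922 to 4329 after vincristine and 2320 to 5040 after colchicine, and 0, 2 and 3 of them fell. The sum of the 7 atrial markers on the array, of which Nppa makes up most, ran from 2240 to 4405 in saline, 4923 to 8078 after vinblastine, 5166 to 13319 after vincristine and 3165 to 12620 after colchicine. Of the 7, 3, 1 and 2 rose and 1, 1 and 2 fell. The 4 fibroblast markers summed to 22535 to 28033 in saline, 20821 to 25569 after vinblastine, where 1 rose, 17925 to 23294 after vincristine, where 2 fell, and 16088 to 23097 after colchicine, where 1 rose and 3 fell. The 4 smooth muscle markers summed to 1674 to 2915 in saline and 1510 to 3663 over the 3 treated groups, with 1 rise in all, after colchicine. The 2 endothelial markers summed to 2051 to 2872 in saline and 1975 to 3555 after treatment, and 1, 1 and 2 of them rose. The 3 leukocyte markers summed to 237 to 284 in saline and 239 to 332 after treatment, with 1 rise, after vincristine. The 2 erythroid markers summed to 11803 to 13882 in saline and fell after vinblastine and vincristine (2 of 2 in each), to 6298 to 11165. None of the 4 skeletal muscle markers tested passed in limma in these groups. The part of these shifts in the values of Myh7 and Myh6 was not tested.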

How the data were processed

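Affymetrix arrays of rat heart RNA, 82 in all, were used as the table of intensities that the authors deposited. Per the labels, total RNA was purified with a Qiagen kit and biotinylated cRNA was prepared with Affymetrix reagents; the summarisation and normalization of the probe sets are not given in the sources used here. Intensities were linear, from 9.76 to 39497, and array medians ran from 57.6 to 63.3. Of 31099 probe sets, 20832 had 1 symbol, 436 several and 9774 none in the annotation used. Genes above the 40th percentile on at least 5 arrays were tested (11320) with limma 3.58.1 in R 4.3.3 on log2(intensity + 16), all groups in one fit with 25 comparisons. Python 3.11.15 with scipy 1.17.1 gave exact permutation tests of the balance. Both were tested on simulated data. The members and gene lists were chosen with earlier results of these data known. Besides the members and markers, up to 3 genes per list were named, those with the largest called changes in each higher-dose comparison, and the 3 genes most alike each of Myh7, Acta1, Myl4 and the balance. The alternatives were a pseudocount of 1, no filter, quantile normalization, the mean of probe sets, the other probe set and probe-set fits without single arrays (both added after seeing the data), fewer groups or arrays, a replicate block, and leaving out each array. Precision is limited by the 5 or 6 hearts in each group.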

Additional observations from a re-analysis of the deposited data

Results flagged for a closer look

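Dixon's test at the 95% level was run on 112 sets of 5 or 6 arrays, 1 per gene or balance and group. In 16 of them an array lay far from the rest, which chance alone reaches in about 1 in 20 where values are normally distributed. The sets are not independent, since the arrays flagged for the balance are also flagged for Myh7. The count is therefore no test of an excess. Of these 16, 7 were sets of an atrial light chain in which 1 heart was high. Saline 6 h replicate 2 and vincristine 0.1 mg/kg 24 h replicate 5 were each flagged for both Myl4 and Myl7. Myl4 read 2300 in saline 6 h replicate 2, 612 in saline 24 h replicate 1, 1658 in vincristine 0.1 mg/kg 6 h replicate 1, 675 in vincristine 0.1 mg/kg 24 h replicate 5 and 249 in colchicine 0.2 mg/kg 6 h replicate 6, each the highest of its group. Myl7 read 3338 in saline 6 h replicate 2 and 2028 in vincristine 0.1 mg/kg 24 h replicate 5.

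Vinblastine 3 mg/kg 6 h replicate 1 stood above its group for Myh7, at 20938, and for the balance, at -0.17. Colchicine 2 mg/kg 24 h replicate 1 stood below its group for Myh7, at 4542, and for the balance, at -2.33. Colchicine 2 mg/kg 6 h replicate 2 was high for Myh7, at 6627, and for the balance, at -1.93. Colchicine 2 mg/kg 6 h replicate 3 was low for Myl3, at 19539, and for Acta1, at 6350, and saline 6 h replicate 3 was low for Acta1, at 5345.

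The change from saline differed between the times, by limma's test of the difference, for Myh6 after vincristine 1 mg/kg (-0.36), for Myh7 after vincristine 1 mg/kg (1.65) and for Myh6 after colchicine 2 mg/kg (-0.30).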

How the results depend on the processing

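No alternative that was run reversed a result. The number of the 7 genes past the threshold changed in these cases. For vinblastine 3 mg/kg at 6 h it was 0 in place of 1 without the 6 arrays whose descriptions end in _2 and in fits restricted to the groups compared. For colchicine 2 mg/kg at 6 h it was 1 in place of 0 in those settings, with the mean of probe sets, and without the 10 arrays nearer another group. For vinblastine 3 mg/kg at 24 h, against saline and against the lower dose, it was 2 in place of 1 with quantile normalization and with the mean of probe sets. At 6 h it was 1 in place of 0 for vinblastine 3 against 0.5 mg/kg with the mean of probe sets, and for vincristine 1 against 0.1 mg/kg with only the compared groups and without the 10 arrays. For the 24 h change minus the 6 h change it was 1 in place of 0 for vinblastine 3 mg/kg with the mean of probe sets and without the 10 arrays. For vincristine 1 mg/kg it was 1 in place of 2 with quantile normalization and 4 without the 6 arrays, and for colchicine 2 mg/kg 2 in place of 1 with quantile normalization and without the 10 arrays. The cause was not tested.

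Leaving out 1 array at a time, this number ranged from 0 to 1 for vinblastine 3 mg/kg at 6 h, for colchicine 2 mg/kg at 6 h and for vinblastine 3 against 0.5 mg/kg at 6 h, from 1 to 2 for vinblastine 3 mg/kg at 24 h, for vincristine 1 against 0.1 mg/kg at 24 h and for the colchicine difference between times, and from 2 to 4 for the vincristine difference between times. The balance at 6 h ranged from 0.71 to 1.25 after vinblastine 3 mg/kg, with the call lost in 8 of 12 fits, and from 0.63 to 0.98 after colchicine 2 mg/kg, with the call lost in 1 of 12. Without the 10 arrays it was 0.71 and 0.85, past the threshold for neither (adjusted p = 0.078 and 0.058 by exact permutation), and without the 6 arrays the vinblastine value was 0.70 (adjusted p = 0.15 by exact permutation).

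Replicate numbers are shared across groups. Correlations between same-numbered hearts ran from -0.38 to 0.45, and in 0 of 18 comparisons was every pair above 0.1. That rule can miss a weaker shared pattern, or one in a few probe sets. On the dimmer Myl2 probe set, replicate 2 was the highest heart in every 6 h group of 6. It read 979 in saline and 385 to 915 in the others. At 24 h no single replicate number was highest throughout. The cause was not tested. Pairing by number, the balance at 24 h was 2.15, 2.35 and 2.32 after vinblastine, vincristine and colchicine, with an adjusted exact permutation p of 0.094, since 6 pairs cannot give a p under 0.031. At 6 h the paired values were 1.11 and 0.85 after vinblastine and colchicine, also not past the threshold (adjusted exact permutation p = 0.15 and 0.094). Of the other alternatives for single genes, 148 results stayed on their side of the threshold, 8 gained a call and 10 lost one.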
